A study of Mus musculus with 4 samples.

Results

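The 8 genes described here encode the subunits of mTOR complex 1 (mTORC1) and mTOR complex 2 (mTORC2), and were taken by name from the 21631 protein-coding genes of chromosomes 1 to 19 and X. Mtor, Mlst8 and Deptor belong to both complexes, Rptor and Akt1s1 to mTORC1 alone, and Rictor, Mapkap1 and Prr5 to mTORC2 alone. For each gene, all Deaf1 ChIP-seq peaks inside its RefSeq span or within 5 kb of it were collected. The series holds 4 samples of C2C12, an immortalised mouse myoblast line. Deaf1 ChIP makes up 2 of them and input chromatin the other 2, with no further genotype, treatment or time point. Per the labels the cells were myocytes crosslinked with formaldehyde, while the series' design text speaks of differentiated myoblasts. Peak lists measure no expression, so the cell label could not be checked against marker genes.

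mTOR is a serine-threonine kinase that joins nutrient and growth factor signals to cell growth. In mTORC1, bound to raptor (Rptor), it drives protein synthesis and holds back autophagy, and in skeletal muscle it governs fibre growth. In mTORC2, bound to rictor (Rictor) and SIN1 (Mapkap1), it phosphorylates Akt and related kinases. Deaf1 is a transcription factor that binds DNA through a SAND domain and is known for contacts with the letters TTCG. How Deaf1 ChIP signal lies over the genes of the complexes, and whether the genes of mTORC1 and mTORC2 differ in it, are the questions of these comparisons.

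Each ChIP replicate came with its own peak list, of 65606 peaks in replicate 1 and 26503 in replicate 2. Each peak has the peak caller's fold enrichment, a ratio of fragments at the summit (the highest point) to the local background, and a −log10 q-value. All fold and q values below are the authors' own. Summit pileup, the number of fragments over the summit, was recovered from fold and p, with a median of 19 fragments in replicate 1 and 23 in replicate 2. Ranges in parentheses after a fold are its 95% exact Poisson interval from the pileup and cover counting error only. A shared region is a block of overlapping peaks from both replicates, 22880 in all. No condition was compared and no control peak list was used, so no test was run, and signal common to open promoters was not told apart from binding by Deaf1. The labels do not say whether the replicates came from separate cultures.

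The sequences around 5 start sites of the members are shown first. ChIP peaks reach into all of them, and also into those of both Mapkap1 starts, which are not printed. On the 2 strands the Mtor sequence holds 6 matches to the letters TTCG, and each of the other printed sequences holds 0 or 1. Each printed sequence runs 5′ to 3′ from 250 bases before to 30 bases after a RefSeq start site (build GRCm38.p6, the assembly behind mm10). Capitals mark TTCG or its reverse complement CGAA. The Mtor stretch is chr4:148448332-148448611 and that of Akt1s1 is chr7:44850122-44850401. Rictor is at chr15:6708131-6708410, and the Prr5 starts are at chr15:84662956-84663235 and chr15:84680748-84681027. All 5 lie on the plus strand.
Mtor: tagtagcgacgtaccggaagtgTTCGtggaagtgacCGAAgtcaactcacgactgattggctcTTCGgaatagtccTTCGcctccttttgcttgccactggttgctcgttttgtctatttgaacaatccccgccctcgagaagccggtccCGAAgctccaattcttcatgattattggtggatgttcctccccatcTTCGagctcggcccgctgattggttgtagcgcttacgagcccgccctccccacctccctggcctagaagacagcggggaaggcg
Akt1s1: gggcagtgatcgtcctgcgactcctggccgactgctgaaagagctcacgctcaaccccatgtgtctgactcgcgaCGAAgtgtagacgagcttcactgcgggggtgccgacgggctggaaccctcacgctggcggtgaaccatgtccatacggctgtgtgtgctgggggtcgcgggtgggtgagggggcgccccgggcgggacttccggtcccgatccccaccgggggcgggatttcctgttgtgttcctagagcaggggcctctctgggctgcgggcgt
Rictor: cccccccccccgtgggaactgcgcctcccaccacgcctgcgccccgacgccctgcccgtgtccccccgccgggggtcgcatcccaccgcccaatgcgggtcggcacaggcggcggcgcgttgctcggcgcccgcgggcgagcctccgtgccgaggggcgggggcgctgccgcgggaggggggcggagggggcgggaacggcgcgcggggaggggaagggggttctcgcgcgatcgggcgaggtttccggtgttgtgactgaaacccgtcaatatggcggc
Prr5 first start: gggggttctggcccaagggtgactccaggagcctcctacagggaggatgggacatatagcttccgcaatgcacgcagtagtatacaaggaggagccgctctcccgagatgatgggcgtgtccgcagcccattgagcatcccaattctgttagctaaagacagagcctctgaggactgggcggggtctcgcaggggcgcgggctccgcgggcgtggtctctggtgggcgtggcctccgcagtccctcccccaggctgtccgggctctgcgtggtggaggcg
Prr5 second start: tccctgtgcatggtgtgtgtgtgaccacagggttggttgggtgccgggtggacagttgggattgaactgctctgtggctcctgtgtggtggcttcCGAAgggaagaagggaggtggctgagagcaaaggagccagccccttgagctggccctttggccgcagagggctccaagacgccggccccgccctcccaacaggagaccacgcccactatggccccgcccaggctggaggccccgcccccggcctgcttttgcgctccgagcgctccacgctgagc

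The stretch with the most TTCG matches was not the one with the highest peak. The Mtor stretch held 6 matches on the 2 strands, a number reached by 0.11% of 32585 RefSeq promoter stretches of the same length. Only 1 of these 6, at base −54 from the start, lay under the replicate 1 peak, and 0 lay under the replicate 2 peak, which covers the last 31 bases. The Rictor stretch, wholly covered by peaks of both replicates and the site of the highest folds among the members, held 0 matches. Akt1s1 and the second start of Prr5 each held 1, which lay under the peaks of both replicates, and the first start of Prr5 held 0. Among the other members Rptor held 2, Mlst8 held 1, and both Mapkap1 starts held 0. Of all promoter stretches 42.6% held TTCG on either strand. The share was 59.6% in the 11521 stretches whose 300-base RefSeq window overlapped a shared region and 33.3% in the rest. CG, the letters of CpG sites, moved with the same split, with medians of 22 and 3 per stretch. The part of CpG content in that gap was not tested. Rictor had 42 CG, more than 97.98% of promoter stretches, Mtor had 21, Akt1s1 25, and the starts of Prr5 18 and 14. Rptor, with 12 CG, had high folds at its start, although the summits lay 399 and 456 bp downstream of it and no base of its stretch was under a peak.

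All 8 members had at least 1 shared region within 5 kb. Among all protein-coding genes 63.6% met this rule. The share depended on span length, at 52.4% for spans under 20 kb, 74.2% from 20 to 100 kb and 84.3% over 100 kb. Mtor, Deptor, Rptor and Mapkap1 are over 100 kb, Rictor and Prr5 are in the middle class, and Mlst8 and Akt1s1 are under 20 kb. The 8 genes held 26 shared regions, 20 of them with summits inside the span of the member. In 23 of the 26, the top summits of both lists were at most 100 bp apart. The matching shares over all shared regions are not given, so these counts only describe the members. Start sites in RefSeq were at hand for 7 members, all but Deptor. In each of these 7, both replicates had a summit within 500 bp of such a start, against 49.3% of the 17274 protein-coding genes with one. Their median fold at the start was 14.6 in replicate 1 and 17.4 in replicate 2. Over all 8514 genes with summits at a start the medians were 16.6 and 15.2. Thus 3 of the 7 members stood above the replicate 1 median and 5 above that of replicate 2.

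**Figure D1:**
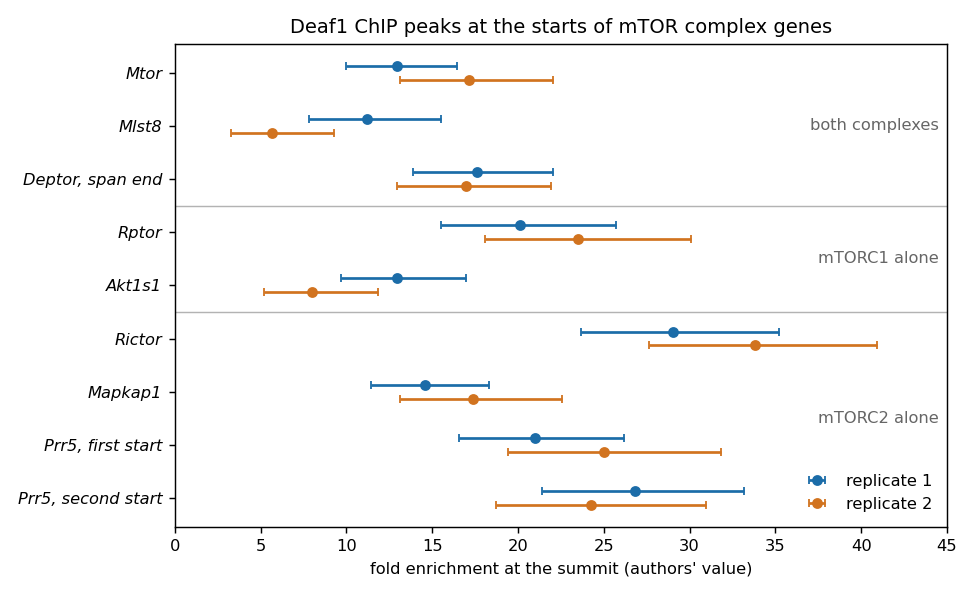
Fold enrichment of the Deaf1 ChIP peak at each start of the mTOR complex genes, with replicate 1 in blue and replicate 2 in orange. Points are the authors' folds, bars are 95% exact Poisson counting intervals, and Deptor is drawn at the lower end of its span; Rictor is highest in both replicates and Mlst8 lowest.

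Mtor, the kinase itself, lies on chromosome 4 from 148448582 to 148557685. Its start peak had a fold of 12.9 (10.003 to 16.5) in replicate 1 and 17.1 (13.1 to 22.0) in replicate 2, with −log10 q of 50.2 and 55.6. The summits lay 133 and 123 bp downstream of the start. The pileups of 64 and 59 fragments stood over raised local backgrounds of 4.03 and 2.502 fragments, where the lowest backgrounds of the lists were 2.13 and 1.64. A weaker shared region lay 3782 and 3818 bp inside the gene, with folds of 6.39 and 5.69. Beyond the far end of the Mtor span a shared region lay 115 and 114 bp upstream of the start of Exosc10, which encodes a nuclease of the RNA exosome, with folds of 18.3 and 17.4. In both replicates this neighbouring peak had a higher fold than the peak at the start of Mtor, within overlapping counting intervals.

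Mlst8, the gene of a beta-propeller protein held on the kinase domain of mTOR, had the lowest start folds of the members. The gene lies on chromosome 17 from 24473550 to 24479114, on the minus strand. At its start the fold was 11.2 (7.84 to 15.5) in replicate 1 and 5.69 (3.28 to 9.29) in replicate 2. These rested on 34 and 14 fragments, with summits 171 and 123 bp downstream of the start. Among genes with peaks of both replicates at a start, 20.04% had a lower fold in replicate 1 and 7.42% in replicate 2. The highest peak in its window belonged to a neighbouring gene. It lay at the start of Pgp, a phosphatase gene, and had folds of 25.2 and 19.4, a pileup of 78 and 71 fragments and a width of 1372 bp. Summits there lay 538 bp downstream of the Pgp start in replicate 1 and 37 bp in replicate 2, which makes it the member region with the widest gap between replicates, 501 bp.

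Deptor, which encodes an inhibitor of mTOR in both complexes, had a single shared region. It stood at the lower end of the span on chromosome 15 (55112317 to 55259273), with summits 443 and 429 bp inside that end. The fold was 17.6 (13.9 to 22.0) in replicate 1 and 16.97 (12.9 to 21.9) in replicate 2, from 74 and 57 fragments. These were close to each other and near the middle of the genes with peaks at a start, of which 55.8% and 56.8% had lower folds. The noncoding gene Gm9920 overlaps this end, and the summits lay 822 and 836 bp inside the nearer end of Gm9920.

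Rptor encodes raptor, the scaffold that brings substrates to mTORC1, and spans chromosome 11 from 119602905 to 119899591, the longest of the 8 genes. At its start the fold was 20.1 (15.5 to 25.7) in replicate 1 and 23.5 (18.1 to 30.1) in replicate 2, with 62 and 61 fragments over the lowest background of each list. No other gene lay within 5 kb of this region. A second, weaker shared region lay near the far end of the gene, with folds of 7.66 and 4.93.

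Akt1s1 encodes PRAS40, an inhibitor of mTORC1 that is also its substrate, and is a short gene on chromosome 7 (44849224 to 44855421). Its window held 5 shared regions, a number reached by 2.87% of protein-coding genes with spans under 20 kb. The region at its RefSeq start had folds of 12.9 (9.68 to 17.0) and 7.996 (5.19 to 11.8), with summits 314 and 298 bp upstream of that start but inside the span. The highest shared region of the gene lay elsewhere, 2316 and 2332 bp downstream of the start. It had folds of 13.7 (9.98 to 18.4) in replicate 1 and 16.3 (11.9 to 21.9) in replicate 2, each from 42 fragments. In replicate 2 the intervals of the inner peak and of the start peak did not overlap, and in replicate 1 they did. The remaining regions inside the span had folds of 5.75 and 5.31 and of 10.9 and 7.59. Several regions in this window were within 5 kb of more than 1 gene, also of Tbc1d17 and Mir707.

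Rictor, the scaffold gene of mTORC2 on chromosome 15 (6708349 to 6800401), carried the highest peak of the set. Its fold was 29.0 (23.7 to 35.2) in replicate 1 and 33.8 (27.7 to 40.9) in replicate 2, with −log10 q of 115.8 and 127.4. Pileups were 101 and 103 fragments, with summits 157 and 147 bp upstream of the RefSeq start, inside the sequence printed above. Of the genes with peaks of both replicates at a start, 98.8% had a lower fold in replicate 1 and 99.2% in replicate 2. The region was 2037 bp wide, wider than 98.95% of all shared regions, and held a second replicate 2 peak with a fold of 11.1. No other gene lay within 5 kb. The rest of the gene had 1 further shared region, 30586 and 30602 bp from the start, with folds of 4.94 and 5.38.

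Mapkap1 encodes SIN1, which binds the substrates of mTORC2, and spans chromosome 2 from 34406771 to 34624958. Its RefSeq starts, 34406771 and 34406851, lie under 1 peak. The fold there was 14.6 (11.5 to 18.3) in replicate 1 and 17.4 (13.1 to 22.6) in replicate 2. As at Mtor, a raised background entered the fold: the pileup of 72 fragments in replicate 1 stood over 4.01 fragments, and the 54 fragments of replicate 2 over 2.17. A second shared region lay deep in the gene, 586 and 530 bp upstream of the start of the noncoding gene Gm34178, with folds of 12.1 (8.64 to 16.6) and 5.69 from 37 and 14 fragments.

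Prr5 encodes Protor-1, a partner of rictor, and had the most shared regions of the 8 genes. The gene lies on chromosome 15 from 84663206 to 84706409 and its window held 8 shared regions, a number reached by 1.48% of protein-coding genes with spans of 20 to 100 kb. High peaks stood at both of its RefSeq starts. At the first start the fold was 21.0 (16.6 to 26.2) in replicate 1 and 25.0 (19.4 to 31.8) in replicate 2, with summits 57 and 71 bp downstream. At the second start, at 84680998, it was 26.8 (21.4 to 33.2) and 24.3 (18.7 to 31.0), with summits 73 and 62 bp downstream. The second start was higher in replicate 1 and the first in replicate 2, within overlapping intervals, so the data give no order between them. Of 1499 protein-coding genes with starts over 1 kb apart, 15.1% had summits of both replicates at such a pair. Further into the gene a region had folds of 15.6 and 9.86, and the other 5 shared regions had folds of 5.72 to 9.26 in replicate 1 and 4.17 to 6.83 in replicate 2.

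**Figure D2:**
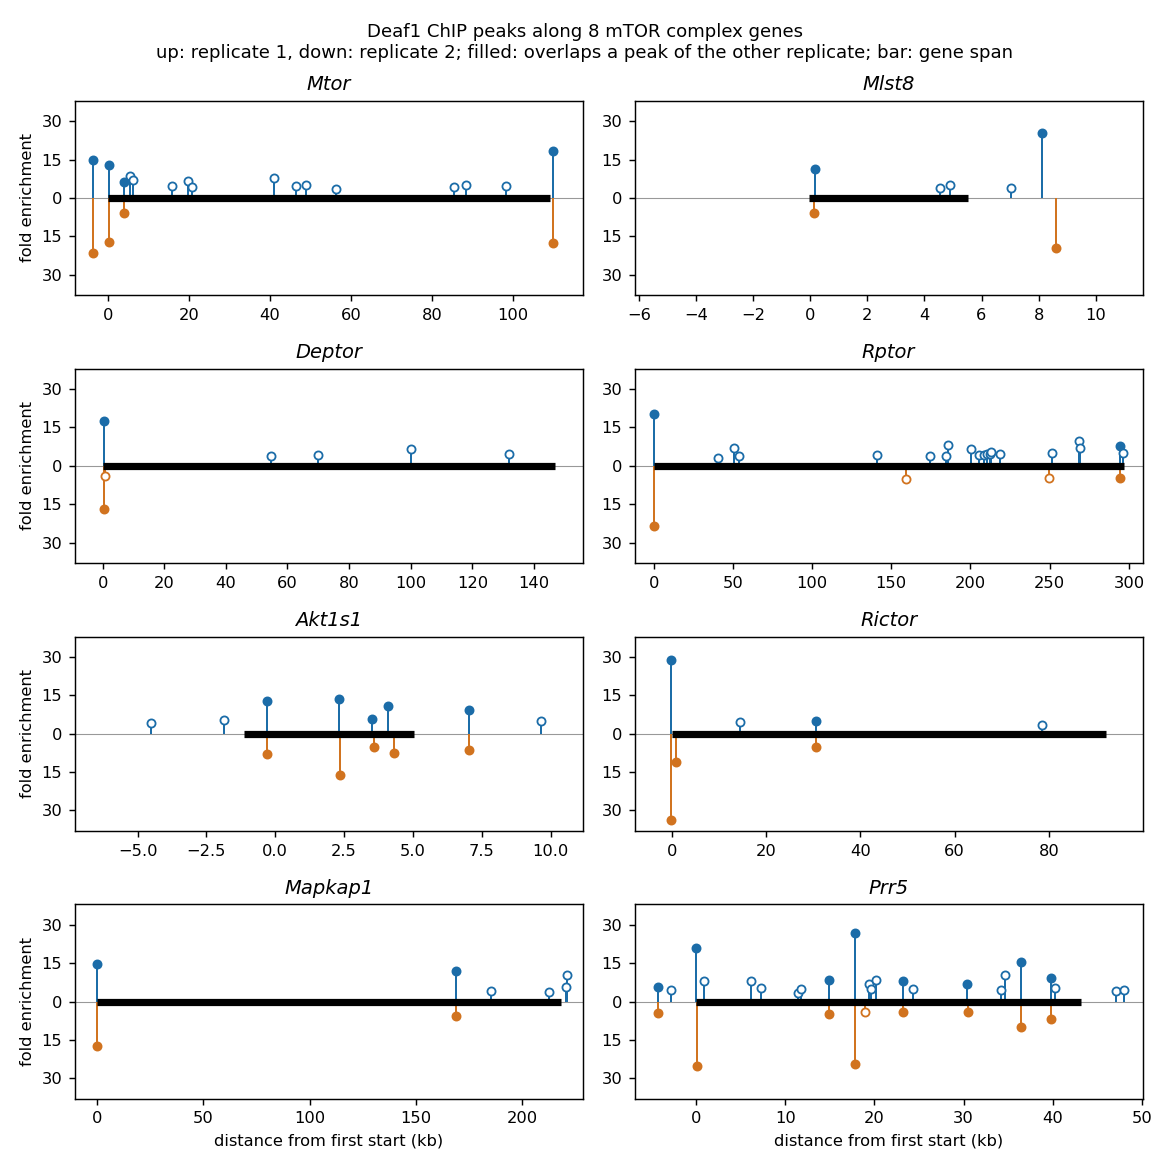
Peaks along each gene by distance from its first start in kb (for Deptor, from the lower span end), with the fold of replicate 1 drawn up and of replicate 2 down. Filled points overlap a peak of the other replicate, open points do not, and the black bar is the gene span. Tall pairs include those near the starts, with both starts of Prr5, and that inside Akt1s1. Others include those beyond the far ends of Mtor and Mlst8 at neighbouring genes.

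Set in order by the fold at the start (for Deptor, at its lower span end), Rictor, Prr5 and Rptor led in both replicates and Mlst8 came last in both. Mapkap1, Mtor and Deptor lay between, with replicate 2 folds of 17.4, 17.1 and 16.97 that their intervals do not separate. In replicate 1 Akt1s1 and Mtor had the same rounded fold, 12.9. Intervals of neighbours in the order overlapped everywhere except in replicate 2 between Deptor (lower bound 12.9) and Akt1s1 (upper bound 11.8). Replicate 2 was above replicate 1 at Mtor, Rptor, Rictor, Mapkap1 and the first start of Prr5, and below it at Mlst8, Akt1s1, Deptor and the second start of Prr5. The lists were made separately, so this direction is not a measure of change.

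**Figure D3:**
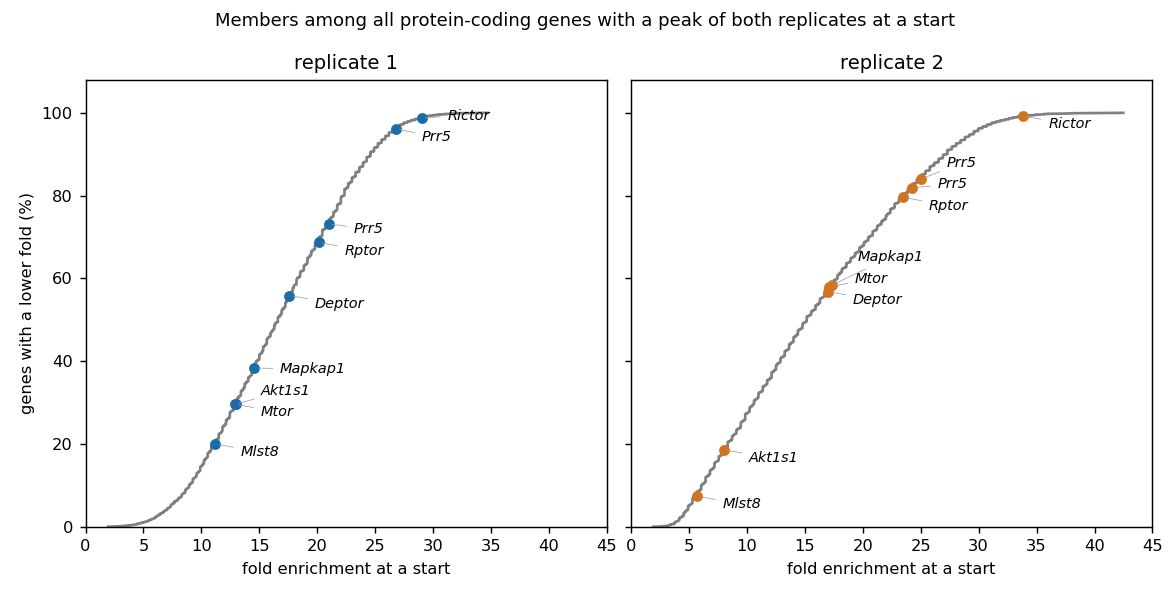
Share of protein-coding genes with a lower fold (percent) against the fold at a start, for the 8514 genes with summits of both replicates there, with replicate 1 on the left and replicate 2 on the right. The grey line is all genes and the points are the members, which spread from 20.04% (Mlst8) to 98.8% (Rictor) in replicate 1 and from 7.42% to 99.2% in replicate 2. Prr5 has a point for each of its starts. Deptor, without a RefSeq start and so not among the 8514 genes, is drawn by the peak at its lower span end.

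Between the complexes the values overlapped. The mTORC1-only genes had start folds of 12.9 and 20.1 in replicate 1 and of 7.996 and 23.5 in replicate 2, for Akt1s1 and Rptor. For the mTORC2-only genes they ran from 14.6 (Mapkap1) to 29.0 (Rictor) in replicate 1 and from 17.4 to 33.8 in replicate 2. The scaffold genes differed in the same direction in both lists, Rictor above Rptor by 29.0 to 20.1 and by 33.8 to 23.5, with overlapping intervals in each. With 2 genes against 3 no test of the complexes is possible, and genes are not replicates. Rictor, Prr5 and Deptor lie on chromosome 15, where 44.7% of replicate 1 peaks and 42.7% of replicate 2 peaks had a background above the lowest level, against 21.4% and 24.9% over all chromosomes. The backgrounds under their start peaks were 2.51 and 2.08 at Rictor, 2.67 and 1.64 at the first start of Prr5, and 2.13 and 1.64 at its second. At the lower span end of Deptor they were 3.27 and 2.42. On other chromosomes the backgrounds at the start peaks were 4.03 and 2.502 at Mtor, 4.01 and 2.17 at Mapkap1, and 2.94 and 2.001 at Akt1s1. Rptor and Mlst8 each had 2.13 and 1.64. Whether the chromosome bears on the order was not tested.

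All 38 other genes of the pathway in 5 lists had a shared region within 5 kb, beside the 63.6% of all protein-coding genes, and 25 of the 29 with a RefSeq start had summits of both replicates there, beside 49.3%. Their median start folds were 18.2 in both replicates. Of the 4 genes for assembly of mTOR kinases with a start entry, 3 had peaks there, with the lowest medians of the lists (8.82 and 5.84), and by the lower replicate they ran from Ruvbl2, an AAA+ ATPase gene, at 5.99 and 5.39 to the cochaperone gene Tti1 at 8.82 and 12.97. Prr5l, the paralog of Prr5, had start folds of 12.5 and 7.59, lowest of its list and below both starts of Prr5, and Pld1, a phospholipase gene, had 22.3 and 26.9. Among mTORC1 substrates 5 of the 7 genes with a start entry had peaks there, with Tfeb, the lysosomal transcription factor, at 24.0 and 26.9 and the adaptor gene Grb10 at 12.1 and 11.0. Of mTORC2 substrates 6 of 6 did, with Prkca, a protein kinase C gene, at 29.1 and 28.1 and the kinase gene Sgk1 at 21.7 and 8.77. Of the direct upstream regulators of mTORC1 7 of 8 did, with the inhibitor gene Tsc1 at 22.0 and 21.6 and its partner Tbc1d7 at 10.2 and 2.72. Median start folds were 16.3 and 18.2 for mTORC1 substrates and 21.1 and 20.5 for mTORC2 substrates, with overlapping ranges.

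**Figure D4:**
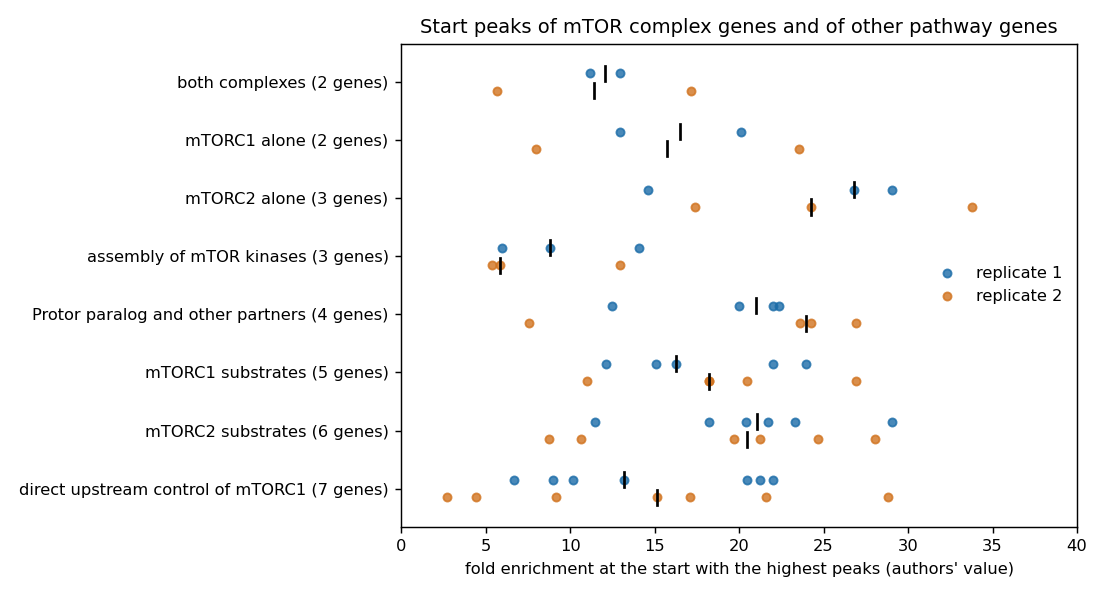
Fold at the start with the highest peaks for each gene of the complexes and of 5 other lists of the pathway, replicate 1 in blue and replicate 2 in orange, black ticks marking list medians. Many of the lists overlap, and the assembly list has the lowest medians, 8.82 and 5.84. All folds of the assembly list, and those of Mtor and Mlst8, are below the lowest of the mTORC2-only list (Mapkap1, 14.6 and 17.4). So are those of Akt1s1, Prr5l, Grb10 and others, and the intervals of Mtor and Mapkap1 overlap in both replicates.

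At the edge of the 5 kb window, the outermost shared region taken in lay 4092 bp from the Prr5 span, with folds of 5.72 and 4.55. The nearest one left out lay 7970 bp from Akt1s1, with 7.02 and 5.69. Further out, a region 9196 bp from Mlst8 had folds of 25.5 and 28.8, higher than any peak of Mlst8 itself.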

How the data were processed

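Peak lists of 2 Deaf1 ChIP samples were used; the 2 input samples had no list here. Per the submitters' processing notes, reads were handled with BWA and MACS2 on mm10; versions, parameters and the control used are not stated there. The replicates were called separately, since the authors deposited 1 list for each. The fold is the authors' ratio of summit to background, and the −log10 p and −log10 q are also deposited values. The deposited score is 10 times the −log10 p, rounded down, and was not used. Summit positions were made 1-based.

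The whole-number pileup giving the deposited fold (1 added to pileup and background) and Poisson p was solved for, with misfits in −log10 p of at most 4.07e-05 and 3.87e-05. It recovered 100% of 463 simulated pileups, which were made with the same formula, so this checks the solving step alone. Simulated backgrounds did not go as low as the lowest of replicate 2, 1.64 fragments. Peaks were shared when they overlapped by 1 bp or more. Gene spans and promoter sequences came from RefSeq, GRCm38.p6. All 8 genes matched a span and 7 a promoter; exons were not used here. All members were named, with neighbours at their shared regions, and from each other pathway list the highest and lowest start fold (by the lower replicate). Members, lists and rules were chosen with earlier results of these data known, and the start-site rule after seeing the files. No test was run. Python 3.11.15, pandas 2.3.3 and scipy 1.17.1 were used. Some results at neighbouring genes are not reported here.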

Additional observations from a re-analysis of the deposited data

How the results depend on the processing

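No paired analysis was possible because only 1 group, Deaf1 ChIP, has peak lists. All 8 members had a shared region (or a peak, with a single list) with windows of 0, 1 and 10 kb, at span ends, with −log10 q or fold at 5 and above, with lists of equal length, with stricter overlaps and with each replicate alone. Among all protein-coding genes, 72.9% had a replicate 1 peak within 5 kb and 64.2% a replicate 2 peak. For the other settings the share of all genes is not given, so these counts show only that no member dropped out. Of the 7 members with a RefSeq start, 7 had summits of both replicates within 500 or 1000 bp of it and 5 within 250 bp. Of all genes with a start, 49.3% did within 500 bp, 54.0% within 1000 bp and 37.5% within 250 bp. These rules were chosen after seeing the data. The 26 shared regions became 10 within 1 kb of a span end, and single lists held 31 to 87 peaks. The top shared fold of a member is the lower value of its replicates. For Mlst8 it was 19.4, then 5.69 with no window, a 1 kb window, span ends, summits within 100 bp or own starts (250, 500 or 1000 bp), and 25.5 with a 10 kb window. For Mtor it was 17.4, then 12.9 with no window or own starts of any width. For Akt1s1 it was 13.7, then 15.9 with a 10 kb window and 7.996 at span ends or own starts (500 or 1000 bp). For Prr5 it was 24.3, then 20.97 at span ends. With single replicates it ran from 18.3 to 21.6 for Mtor, 19.4 to 25.2 for Mlst8, 16.97 to 17.6 for Deptor, 20.1 to 23.5 for Rptor, 13.7 to 16.3 for Akt1s1, 29.0 to 33.8 for Rictor, 14.6 to 17.4 for Mapkap1 and 25.0 to 26.8 for Prr5. For Mtor the ends of this range came from different regions, neither at its start, and for Prr5 from its different starts. These ranges are therefore not the spread of a single peak between replicates. Counting error limits the weaker peaks most, such as the 14 fragments of Mlst8 in replicate 2.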

Other observations

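Of 87 replicate 1 peaks at the 8 genes, 61 had no partner in replicate 2, and their median fold was 4.79, beside 12.5 for the 26 with one. In replicate 2, 4 of 31 peaks had no partner. The share of member peaks with a partner was 29.9% in replicate 1 and 87.1% in replicate 2, beside 35.0% and 94.0% over the whole lists.

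Rptor, the raptor gene, held 18 of the peaks found in replicate 1 alone, with folds of 2.996 to 9.90, and 2 found in replicate 2 alone, with folds of 4.93 and 5.31. Prr5, the Protor-1 gene, held 15 in replicate 1 alone, with folds of 3.19 to 10.5, and Mtor, the kinase gene, held 12, with folds of 3.51 to 8.62. Rictor, the gene with the highest start peak, held 2 such peaks, with folds of 3.37 and 4.52. At Mapkap1, the SIN1 gene, the highest of 4 had a fold of 10.5 and lay beyond the far end of the span.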
